A study of Mus musculus with 9 samples.

Results

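The genes described here are 10 growth factor and cytokine genes with known parts in tissue repair, chosen by name: Areg, Ereg, Hbegf, Vegfa, Osm, Igf1, Pdgfa, Pdgfb, Hgf and Fgf2. They were chosen with earlier results of these data known. Each matched 1 of the 45535 rows of the table that carry a gene symbol, and all 10 were among the 18202 genes tested. They were followed in lung dendritic cells carrying the integrin CD103, taken from C57/BL6j mice at day 7 of bleomycin, which injures the lung and leads to fibrosis. The lung tissue was broken up with collagenase, and magnetic bead selection for CD103 followed. The RNA of 5 samples came from the selected cells without culture (before culture). The other 4 samples were first kept ex vivo for 18 h in RPMI that held 10% fetal bovine serum plus 1% penicillin and streptomycin (after culture). All samples came from bleomycin-treated mice, and age, sex and the number of mice behind a sample are not given in the sources used here. The extraction note of the labels speaks of total lung RNA, whereas the cell type label names CD103+ dendritic cells.

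Growth factors of the EGF family (Areg, Ereg, Hbegf) are made as membrane proteins, are cut free by proteases such as ADAM17, and act on ERBB receptors of epithelium and stroma. Vegfa drives the growth and leakiness of vessels, and the PDGF chains made by Pdgfa and Pdgfb recruit and expand fibroblasts and pericytes. Osm is an interleukin-6 family cytokine of activated leukocytes that acts through the shared receptor chain gp130. Igf1, Hgf and Fgf2 act on receptor tyrosine kinases that promote survival, growth and migration of epithelial and mesenchymal cells. Dendritic cells are known mainly for presenting antigen, and several of these factors are also made by macrophages, neutrophils, endothelium and stroma of the lung.

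Depth in rows with a symbol ran from 14.7 to 28.8 M reads before and from 26.0 to 35.3 M reads after culture. A value below is a normalized read count, which is the reads of a gene divided by 1 size factor per sample, and 1 read was worth 0.758 to 1.79. No value of the 10 genes rested on fewer than 46 reads, the lowest being Areg after culture. Of the 10 dendritic cell markers fixed for the labelled type, all were read in every sample. Itgae, which encodes CD103, stood at 18138 ± 1537 against 1727 ± 335 (SD, n = 5 before and n = 4 after, 10.5-fold lower after culture, limma adjusted p = 4.45e-11). Replicate 4 before culture was the lowest sample of its group for 8 of the 10 growth factor genes, and replicate 3 after culture was the lowest of its group for 6. These libraries carry the same number in their names, B4 and A4.

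The first comparison asked which of the 10 genes differed between cultured and uncultured cells. All 10 passed a limma adjusted p of 0.05, 4 of them higher and 6 lower after culture. Osm (log2 fold change −3.26) and Areg (−3.14) fell most. Ereg rose most (1.99). Most of the transcriptome differed between the groups, and 68.8% of all genes tested passed the same threshold, 34.2% higher and 34.6% lower. Of the 10 genes, 7 also changed 2-fold or more, 3 higher and 4 lower, and 32.7% of all genes did, 14.1% higher and 18.6% lower. The groups' values did not overlap for 9 of the 10, with cultured samples above for 3 and below for 6. Over all genes they did not overlap for 57.3%, with cultured samples above for 28.7% and below for 28.6%. The number of genes called among the 10 is therefore read beside a background that is itself high. The median size of the change, whatever its direction, was 1.48 (log2) for the 10 genes and 0.635 for all genes. These fold changes are on the scale of log2(value + 1), which understates changes of low genes.

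**Figure D1:**
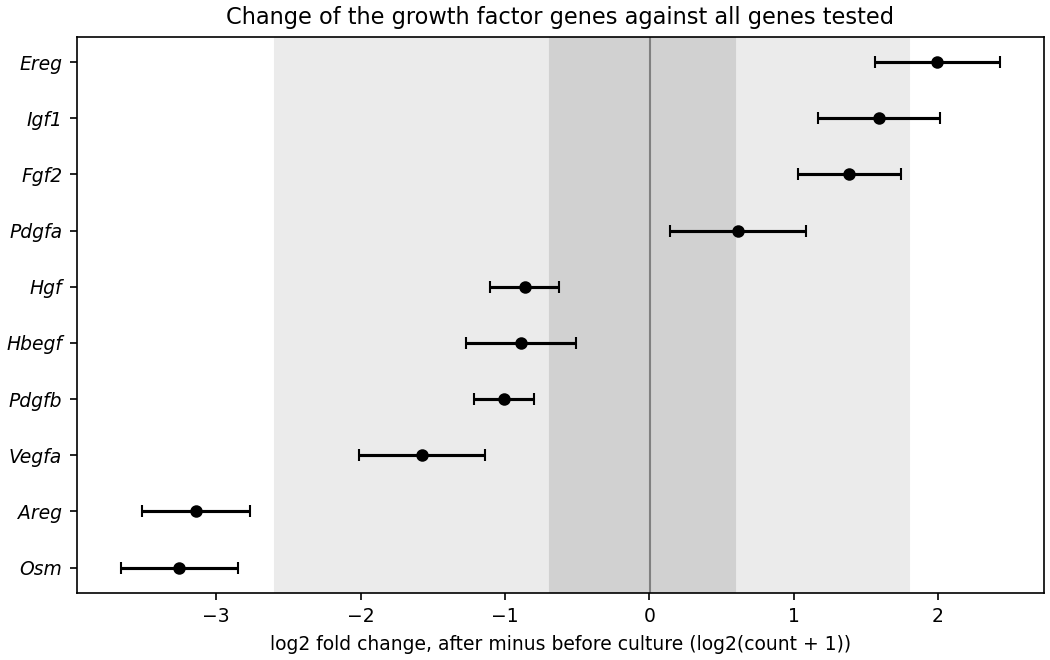
Log2 fold change of each of the 10 genes after minus before culture (points, with the 95% interval from limma as bars), over 9 samples. The dark band runs from the 25th to the 75th percentile of all 18202 genes tested, from −0.69 to 0.59, and the light band runs from the 5th to the 95th percentile, from −2.59 to 1.80. Osm and Areg lie below the light band and Ereg above it.

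Among the EGF family ligands, Areg and Ereg went in opposite directions. Areg encodes amphiregulin, a ligand of EGFR that is known as a repair factor of leukocytes. Its normalized count was 505, 468, 426, 338 and 394 in replicates 1 to 5 before culture, and 61.8, 53.1, 41.9 and 35.7 in replicates 1 to 4 after culture. Every cultured sample lay far below every uncultured one, with means of 426 ± 64.6 against 48.1 ± 11.6, or 8.86-fold lower (log2 fold change −3.14, SE 0.174, limma adjusted p = 3.02e-09). Ereg encodes epiregulin, which binds EGFR and ERBB4. Its normalized count was 121, 141, 178, 116 and 139.6 in replicates 1 to 5 before culture, and 513, 865, 541 and 382 in replicates 1 to 4 after culture. All 4 cultured samples were above all 5 uncultured ones, and replicate 2 after culture was the highest. Means were 139 ± 24.7 against 576 ± 205, or 4.14-fold higher (log2 fold change 1.99, SE 0.201, limma adjusted p = 1.18e-06).

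Within samples the balance of these ligands turned over. Per kb of exons, a scale on which genes can be set beside each other, Areg stood at 351 ± 53.2 and Ereg at 33.7 ± 5.98 before culture, and at 39.6 ± 9.57 and 139 ± 49.7 after it. The log2 ratio of the counts of Ereg to Areg ran from −2.05 to −1.25 before culture. After culture it ran from 3.03 to 4.00. The mean ratio moved by 5.13, from −1.61 ± 0.298 to 3.52 ± 0.411 (SD), and no test was run on it. These genes are neighbours on chromosome 5 of GRCm38.p6, Ereg at 91074617 to 91093649 and Areg at 91139599 to 91148432. In RefSeq's annotation of that build 45.9 kb and no other gene lie between them. Epgn and Btc, other EGF family genes, flank the pair on either side. Btc, which encodes betacellulin, stood at 4.17 ± 2.83 before and 18.6 ± 4.35 after culture. It reached the mean of 10 over all samples only through its cultured samples, so no p-value is given for it. Epgn was below the mean of 10 needed for a test.

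The promoter of Areg is shown because the cyclic AMP response element (CRE), the binding site of CREB, is known to act at amphiregulin promoters. RefSeq's table for GRCm38.p6 held a start for 6 of the 10 genes, and for 3 of them (Areg, Vegfa and Hgf, which all fell) it was the outer end of the annotated gene. The 250 bases before that start are printed 5′ to 3′ on the strand of the gene, with capitals for every match on either strand to TGACG (the short form of the CRE, which is also part of the full form, TGACGTCA), TGANTCA (the AP-1 motif) or ACGTG (the core of the HIF motif). The windows are chr5:91139349-91139598 on the plus strand for Areg, chr17:46032378-46032627 on the minus strand for Vegfa and chr5:16553245-16553494 on the plus strand for Hgf.
Areg: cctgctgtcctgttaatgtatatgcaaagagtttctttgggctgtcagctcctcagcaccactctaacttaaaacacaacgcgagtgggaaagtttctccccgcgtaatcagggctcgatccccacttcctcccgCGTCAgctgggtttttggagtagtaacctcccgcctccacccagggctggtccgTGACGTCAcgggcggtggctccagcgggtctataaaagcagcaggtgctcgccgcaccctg
Vegfa: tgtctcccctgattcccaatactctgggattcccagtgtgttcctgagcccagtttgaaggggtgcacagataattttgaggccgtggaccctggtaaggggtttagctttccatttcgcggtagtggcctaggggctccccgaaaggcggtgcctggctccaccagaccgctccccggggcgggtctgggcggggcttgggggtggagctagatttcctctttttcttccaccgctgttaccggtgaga
Hgf: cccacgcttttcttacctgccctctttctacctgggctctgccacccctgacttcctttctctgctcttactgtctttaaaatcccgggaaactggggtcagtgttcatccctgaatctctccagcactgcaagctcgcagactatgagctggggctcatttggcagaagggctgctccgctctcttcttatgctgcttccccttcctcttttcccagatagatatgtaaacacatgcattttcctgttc
The full CRE stood once in the Areg window, from base 61 to base 54 before the start, and 1.55% of all 32851 promoter windows of that length hold it. A short form on the other strand lay further from the start. The short form was in 17.8%, the AP-1 motif in 6.75% and the HIF core in 16.6% of all windows. None of these motifs were found in the Vegfa or Hgf window. The table lists another start for each of Vegfa and Hgf, which was not searched, and the bases just after the start used for Vegfa were in no GENCODE M21 transcript of the gene. A match describes the letters and not binding in these cells.

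Hbegf encodes heparin-binding EGF-like growth factor, a ligand of EGFR and ERBB4. Its normalized count was 363, 494, 614, 398 and 354 in replicates 1 to 5 before culture, and 263, 274, 239 and 174 in replicates 1 to 4 after culture. All cultured samples were below all uncultured ones, although the gap was small, from 274 to 354. Means were 445 ± 109.5 against 238 ± 44.9, or 1.87-fold lower (log2 fold change −0.89, SE 0.177, limma adjusted p = 5.38e-04). The ratio of these ligands moved as well, since the log2 ratio of the counts of Hbegf to Areg was −0.48 to 0.52 before and 2.07 to 2.49 after culture.

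Osm, which encodes oncostatin M, was the gene that fell most. Its normalized count was 7549.7, 7927, 8528, 4497 and 9158 in replicates 1 to 5 before culture, and 911, 918, 614 and 667 in replicates 1 to 4 after culture. Replicate 4 before culture was the lowest uncultured sample and still several times above the highest cultured one. Means were 7532 ± 1803 against 777 ± 159.6, or 9.69-fold lower (log2 fold change −3.26, SE 0.188, limma adjusted p = 4.51e-09). Lif, the closest relative of Osm by sequence and receptor use, went from 617 ± 114 to 459.6 ± 84.7, with overlapping groups (log2 fold change −0.42, SE 0.156, limma adjusted p = 0.0282). The Lif call was lost in 4 of the 9 fits that left out 1 sample (without replicate 1, 2 or 3 before culture or replicate 4 after culture) and under upper quartile scaling, quantile normalization and the GC and length correction, with a limma adjusted p of up to 0.862. The log2 ratio of Osm to Lif went from 3.59 ± 0.209 to 0.75 ± 0.224 (SD), with groups that did not overlap.

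Vegfa, the main growth factor of vessels, fell. Its normalized count was 3697, 4407, 4886, 3266 and 4355 in replicates 1 to 5 before culture, and 1565, 2204, 988 and 1032 in replicates 1 to 4 after culture. Replicate 2 after culture was the highest cultured sample and replicate 4 before culture the lowest uncultured one, and a gap remained between them. Means were 4122 ± 639 against 1447 ± 569, or 2.85-fold lower (log2 fold change −1.57, SE 0.203, limma adjusted p = 1.24e-05). Vegfb, a relative that is not induced by low oxygen, went from 331 ± 67.0 to 209 ± 21.1 (log2 fold change −0.64, SE 0.160, limma adjusted p = 0.00298), but its direction flipped to 0.12 once GC content and transcript length were corrected for, a step called the GC and length correction here. The log2 ratio of Vegfa to Vegfb was 3.28 to 3.92 before and 2.26 to 3.28 after culture, so the ranges adjoined without overlapping.

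The PDGF chains diverged. The normalized count of Pdgfb was 2158, 2524, 2393, 1892 and 1974 in replicates 1 to 5 before culture, and 1182, 1115, 967 and 1077 in replicates 1 to 4 after culture. The cultured samples lay close together and below all uncultured ones. Means were 2188 ± 269 against 1085 ± 89.9, or 2.02-fold lower (log2 fold change −1.01, SE 0.0965, limma adjusted p = 7.23e-07). The GC and length correction shrank this change to −0.30 (limma adjusted p = 0.00541), the largest shift among the 10 genes.

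The normalized count of Pdgfa was 169, 256, 242, 116 and 202 in replicates 1 to 5 before culture, and 278, 370.0, 223 and 312 in replicates 1 to 4 after culture. Replicate 3 after culture lay below replicates 2 and 3 before culture, which makes Pdgfa the 1 gene of the 10 whose groups overlapped. Means were 197 ± 57.1 against 296 ± 61.6, with the cultured mean higher (log2 fold change 0.62, SE 0.218, limma adjusted p = 0.0223). This call was lost without replicate 2 after culture (limma adjusted p = 0.0687) or replicate 4 after culture (limma adjusted p = 0.0578). The antisense gene 6330403L08Rik covers 26.1% of the exon bases of Pdgfa in GENCODE M21, and stood at 163 ± 56.8 before and 222 ± 53.6 after culture. Whether counting used strand is not given in the sources used here, so reads of this pair cannot be told apart and the value of Pdgfa is uncertain. Within samples, the log2 ratio of Pdgfb to Pdgfa went from 3.51 ± 0.328 to 1.89 ± 0.251 (SD), with groups that did not overlap.

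The remaining factors act on mesenchyme and epithelium. Igf1, insulin-like growth factor 1, had a normalized count of 603, 793, 875, 442 and 637 in replicates 1 to 5 before culture, and 1846, 2346, 1403 and 2461 in replicates 1 to 4 after culture. All cultured samples were above all uncultured ones. Replicate 4 before culture and replicate 3 after culture were the lowest of their groups. Means were 670.0 ± 169 against 2014 ± 487, or 3.01-fold higher (log2 fold change 1.59, SE 0.195, limma adjusted p = 7.86e-06).

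Fgf2 encodes basic fibroblast growth factor, a mitogen of fibroblasts and endothelium. Normalized counts were 149, 165, 224, 165 and 166 in replicates 1 to 5 before culture, and 399, 431, 644 and 375 in replicates 1 to 4 after culture. Replicate 3 was the high sample of each group and the groups did not overlap. Means were 174 ± 29.2 against 462 ± 123, or 2.66-fold higher (log2 fold change 1.39, SE 0.165, limma adjusted p = 5.95e-06). Nudt6, the coding gene that overlaps 9.44% of the exon bases of Fgf2 on the other strand, stood at 62.4 ± 6.79 before and 59.4 ± 11.8 after culture (SD, limma adjusted p = 0.705).

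Hgf encodes hepatocyte growth factor, the ligand of MET. Normalized counts were 713, 858, 844, 646 and 687 in replicates 1 to 5 before culture, and 458, 385, 359 and 441 in replicates 1 to 4 after culture. The groups did not overlap and the spread was small within each. Means were 749.6 ± 95.4 against 411 ± 46.5, or 1.82-fold lower (log2 fold change −0.86, SE 0.111, limma adjusted p = 1.22e-05).

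**Figure D2:**
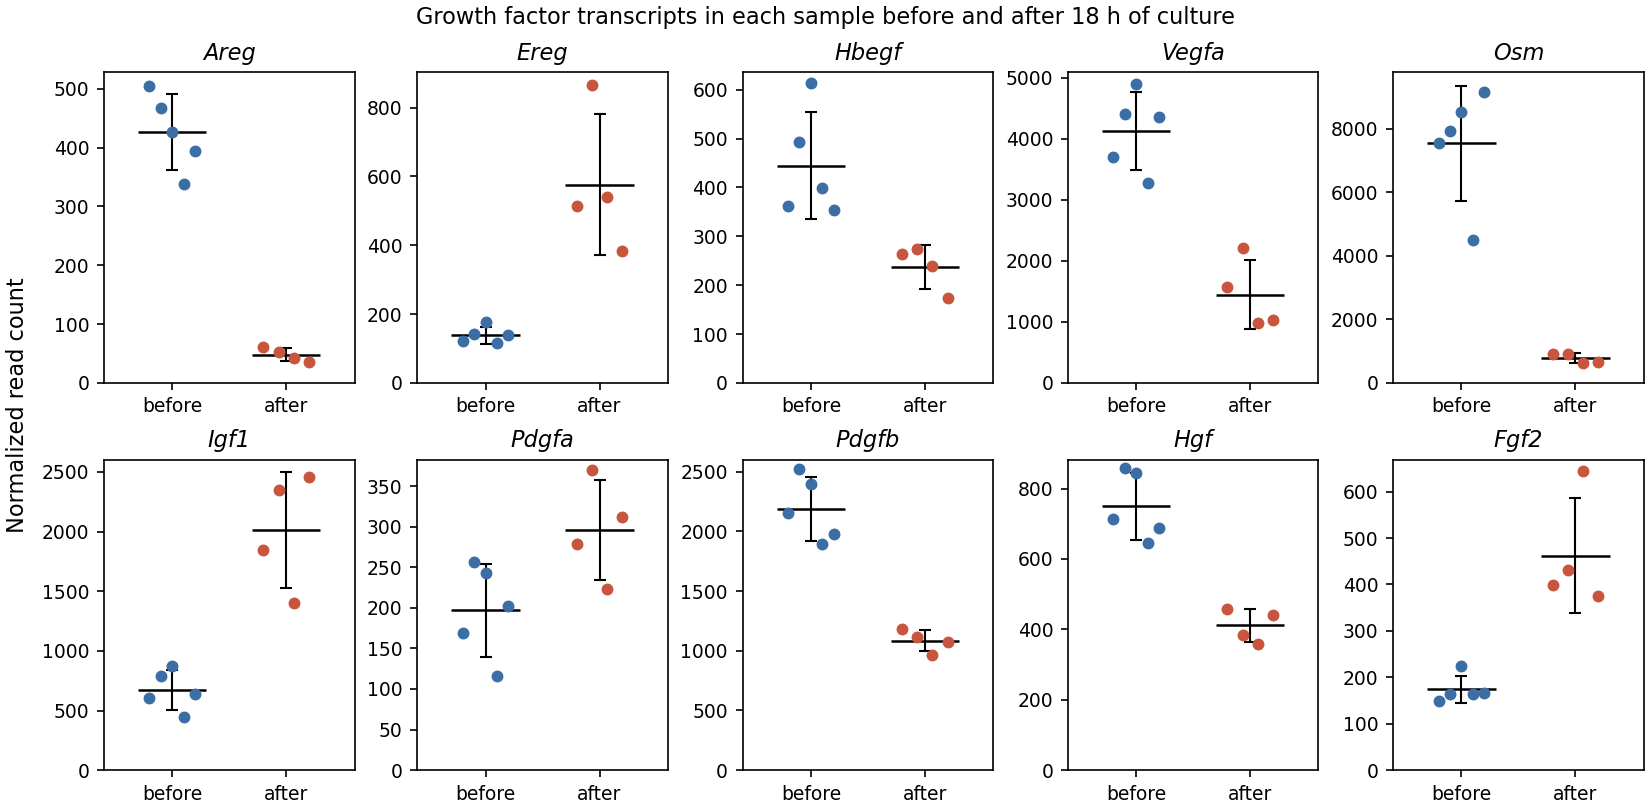
Normalized read count of each of the 10 genes in every sample before (blue, n = 5) and after (red, n = 4) 18 h of culture, with the group mean (line) and SD (bar), each panel on its own linear axis from 0. Groups overlap for Pdgfa only, while Areg and Osm show the widest separation below and Ereg, Igf1 and Fgf2 lie above their uncultured samples.

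The order of the 10 genes was compared per kb of exons (union of annotated exons, GENCODE M21), because raw counts grow with transcript length. The union exceeds the longest transcript for Hgf (7186 against 3468 bases), Hbegf (4834 against 2890), Pdgfb (4161 against 2944) and others, but not for Osm (2272). The order and shares therefore depend on this choice of length. Before culture Osm led with 3315 ± 793 normalized counts per kb (SD), ahead of Vegfa (962 ± 149), Pdgfb (526 ± 64.7) and Areg (351 ± 53.2). Each of these was apart from the next in all 5 samples. The other 6, from Hgf (104 ± 13.3) down to Fgf2 (25.6 ± 4.31), overlapped with their neighbours in the order. After culture every gene overlapped with its neighbours. Osm (342 ± 70.3) and Vegfa (338 ± 133) stood at the top beside Pdgfb (261 ± 21.6) and Igf1 (203 ± 49.2), and Areg was last (39.6 ± 9.57). Of the summed per kb level of the 10 genes, Osm held 59.3 ± 4.57% before and 21.5 ± 1.62% after culture (SD). The share of Igf1 went from 1.22 ± 0.154% to 12.9 ± 3.15%, and that of Ereg from 0.616 ± 0.0912% to 8.66 ± 1.99%. These shares sum to the whole within a sample, so a fall of Osm by itself raises the others.

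**Figure D3:**
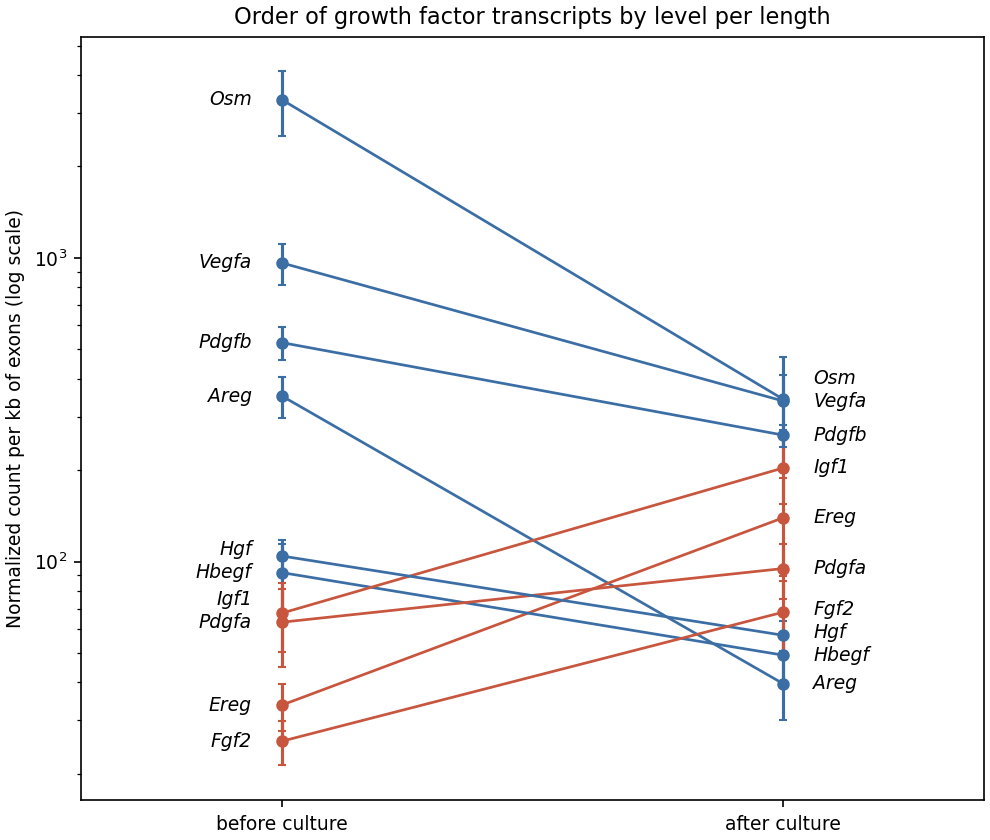
Mean level of each of the 10 genes before and after culture in normalized counts per kb of exons (log axis, bars are SD, n = 5 and n = 4), in red where the gene was higher and in blue where it was lower after culture. Osm stands alone at the top before culture, and the levels draw together after it, with Areg moving from the fourth place to the last.

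The next comparison took the other genes of the same pathways, in 11 lists that leave out the 10 themselves. Of 129 genes, 122 were tested, and 28 were higher and 79 lower after culture at a limma adjusted p under 0.05. That is 87.7% of those tested beside 68.8% of all genes, and the median log2 fold change was −0.72 beside 0.00647. The lists were chosen with earlier results of these data known, so this difference is a description and not a test of the pathways. The counts include Btc, Pdgfd, Pdgfrl and Igfbp2, which reached the mean of 10 over all samples only through the group where they were high.

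In the EGF list, 5 of 10 tested ligands and shedding genes were higher and 3 lower (median 0.41). The 5 include Btc, which reached the mean of 10 only through its cultured samples. At a minimum mean of 50, 4 of 8 tested genes were higher and 3 lower. The ligand genes Nrg1 (277 ± 54.4 against 1872 ± 388) and Egf (49.2 ± 12.0 against 215 ± 58.0) rose, 6.75-fold and 4.37-fold, and Nrg2 fell (152 ± 23.9 against 45.4 ± 5.96, log2 fold change −1.72, and −0.83 after the GC and length correction). The sheddases rose modestly, Adam17 from 2997 ± 197 to 4699 ± 706 (limma adjusted p = 6.69e-05) and Adam10 from 4592 ± 308 to 8797 ± 1140.1 (8.86e-07). The iRhom genes, whose products carry ADAM17 to the surface, were lower. Rhbdf1 went from 382 ± 40.8 to 204 ± 17.0, a log2 fold change of −0.90 that shrank to −0.26 under that correction. Rhbdf2 went from 3824 ± 455 to 2712 ± 403, a change of −0.50 that turned to 0.20 after the GC and length correction. Tgfa, another EGFR ligand, was low in both groups (29.6 ± 9.42 against 28.0 ± 5.76, limma adjusted p = 0.896, 95% interval −0.64 to 0.55 on the log2 scale).

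Receptors for these ligands were read as well. Egfr rose 2.53-fold (287 ± 36.4 against 727 ± 74.1, limma adjusted p = 1.91e-07), and Erbb2 fell (154 ± 27.8 against 72.3 ± 22.3), though not past the threshold after the GC and length correction (limma adjusted p = 0.0844). Errfi1, a feedback inhibitor of EGFR, fell 2.36-fold (3487 ± 213 against 1481 ± 211), and Lrig1, another inhibitor, rose (301 ± 57.5 against 502 ± 73.2). In that list 3 of 6 tested genes were higher and 2 lower.

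In the VEGF list 6 of 9 genes were lower and 2 higher (median −1.54). The receptor genes of endothelium fell, namely Flt1 5.87-fold (3097 ± 490.4 against 527 ± 156), Kdr 3.88-fold (2402 ± 645 against 619 ± 148) and Flt4 4.30-fold (593 ± 107 against 138 ± 23.4). The log2 fold change of Flt4 was −2.10, and −1.44 after the GC and length correction. The coreceptor gene Nrp2 rose 6.13-fold (2404 ± 447 against 14727 ± 2499). Nrp1 was at 3378 ± 407 against 4327 ± 866, and its call was lost in 5 of the 9 fits without 1 sample (replicate 1 or 5 before culture, or replicate 1, 2 or 4 after culture). It was also lost after the GC and length correction (log2 fold change 0.0378 from 0.34, limma adjusted p = 0.828) and with a replicate block by title number (limma adjusted p = 0.0726).

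All 5 genes of the PDGF list were lower (median −1.23), but 3 of 5 passed after the GC and length correction, quantile normalization or upper quartile scaling, and without replicate 2 or 3 before culture or replicate 1 or 4 after culture. Those that passed in each of these were the ligand gene Pdgfd (83.5 ± 28.9 against 6.37 ± 4.13), the receptor gene Pdgfrb (322 ± 91.8 against 135 ± 31.6) and Pdgfrl, a receptor-like gene (28.8 ± 7.21 against 5.80 ± 2.32). Pdgfc, the other ligand gene of the list, went from 314 ± 80.0 to 221 ± 61.6 with overlapping groups (limma adjusted p = 0.0419). Pdgfra went from 800.4 ± 165 to 569 ± 188 with overlapping groups, and its limma adjusted p of 0.0352 rose above the threshold in 5 of the 9 fits without 1 sample (replicate 2, 3 or 4 before culture, or replicate 1 or 4 after culture), to at most 0.136. The Pdgfra call was also lost after the GC and length correction (limma adjusted p = 0.113), upper quartile scaling (0.0743) and quantile normalization (just above 0.05).

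In the IGF list 8 of 11 tested genes were lower and 1 higher (median −0.73), and 5 lower and 3 higher after the GC and length correction. Binding proteins, which hold IGF1 outside cells and set its access to the receptor, made up most of the falls. Igfbp5 fell 20.2-fold (2384 ± 227 against 118 ± 23.5), Igfbp6 10.2-fold (146 ± 24.6 against 14.3 ± 2.60) and Igfbp7 4.64-fold (1300.3 ± 246 against 280.0 ± 68.8). Igfbp2 went from 34.8 ± 18.2 to 0.638 ± 0.431, which is below 3 reads in every cultured sample. It is counted among the 8, although it reached the mean of 10 only through its uncultured samples. The receptor gene Igf1r rose 1.46-fold (1693 ± 149 against 2469 ± 81.8, limma adjusted p = 2.63e-05), in the same direction as Igf1.

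In the HGF list 4 of 9 genes were higher and 3 lower (median 0.33). While Hgf fell, Met, the gene of its receptor, rose 7.87-fold (1169 ± 158 against 9198 ± 2339). St14, which encodes the HGF-activating protease matriptase, rose 20.9-fold, from 212 ± 17.7 to 4435 ± 339 (log2 fold change 4.38, limma adjusted p = 5.92e-13). Spint2, an inhibitor of such proteases, rose 2.41-fold (855 ± 83.9 against 2063 ± 165), and the protease gene Plau rose 2.22-fold (1436 ± 248 against 3187 ± 1076). Mst1r, the receptor of the HGF-like protein, fell (66.8 ± 9.16 against 34.8 ± 3.45, limma adjusted p = 5.34e-04, 0.173 after the GC and length correction). The protease gene Hpn (70.0 ± 9.54 against 41.7 ± 18.3) and the inhibitor gene Spint1 (3784 ± 393 against 2831 ± 518) were also lower. Neither of these held after that correction, under which Spint1 turned to 0.0780 and Hpn was at −0.20.

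In the FGF list 11 of 12 tested genes were lower and 1 higher (median −1.97), the opposite direction to Fgf2. Fgfr1 fell 3.57-fold (3478 ± 530.0 against 975 ± 30.7), Fgfr3 4.00-fold (489.7 ± 78.7 against 123 ± 35.7), the ligand gene Fgf1 9.22-fold (311 ± 81.2 against 33.7 ± 14.9) and Fgf11 3.94-fold (77.9 ± 17.6 against 19.8 ± 3.42). Fgf7, a ligand made by stroma for epithelium, was the gene that rose (32.5 ± 10.8 against 97.7 ± 20.4). In the OSM and interleukin-6 list 7 of 12 tested genes were lower and 3 higher. The shared receptor gene Il6st rose 2.01-fold (6669.9 ± 745 against 13383 ± 993), whereas the specific chains Osmr (776 ± 125 against 306 ± 76.0), Lifr (2460.0 ± 220.1 against 213 ± 31.6) and Il6ra (4615 ± 333 against 2308 ± 64.6) fell. Il11, a cytokine with profibrotic actions, rose from 17.6 ± 7.59 to 275 ± 74.5 (log2 fold change 3.97), and its receptor gene Il11ra1 rose 2.28-fold (428 ± 72.1 against 975 ± 138).

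**Figure D4:**
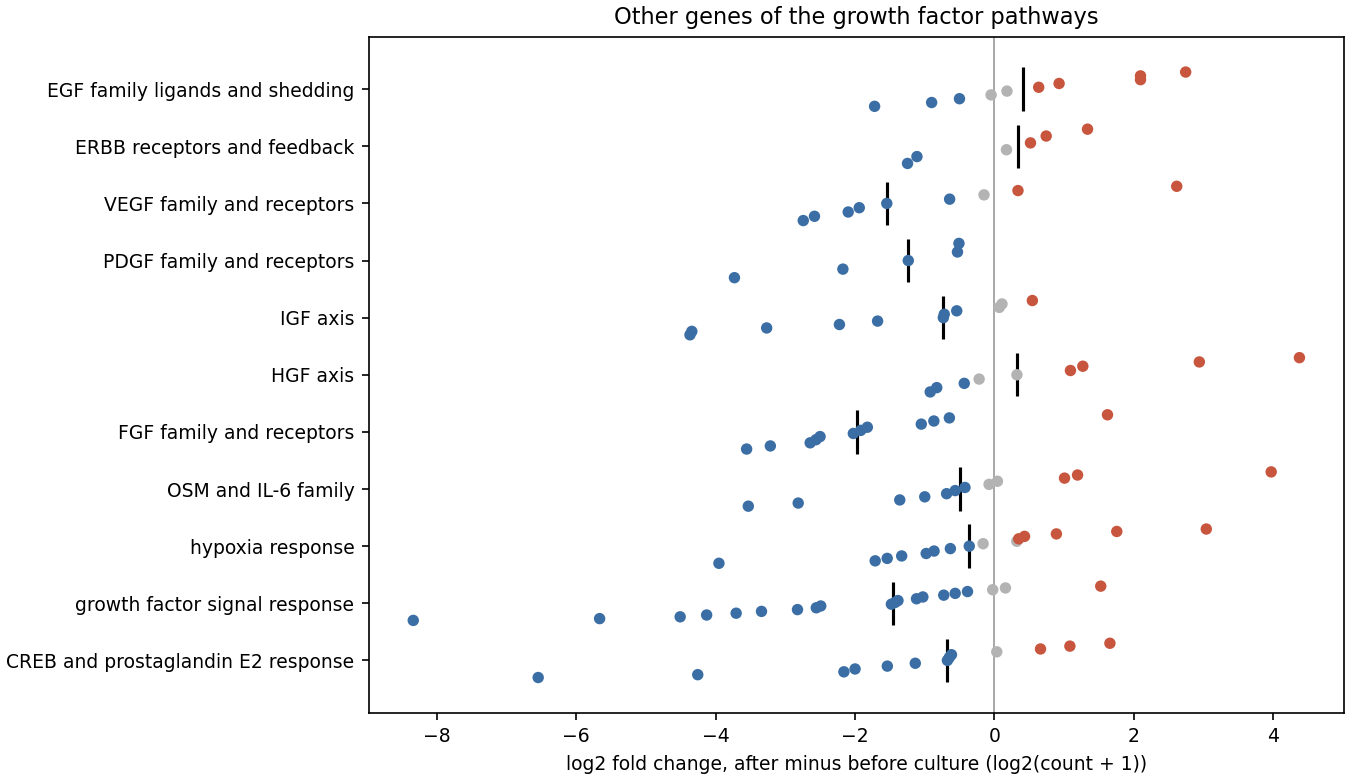
Log2 fold change after minus before culture of each tested gene in the 11 pathway lists (points), in red where higher, in blue where lower and in grey where the limma adjusted p was 0.05 or more. The black mark is the median of the list, which runs from −1.97 for the FGF list to 0.41 for the EGF ligand and shedding list.

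The last 3 lists hold responses that are known to induce these growth factors or to follow from them. Of the 20 genes induced by growth factor receptors through ERK, or feeding back on it, 17 were lower and 1 higher (median −1.45). Fosb fell 322-fold (88532 ± 10022 against 275 ± 54.9), Fos 49.2-fold (74479 ± 8647 against 1512 ± 459), Ier2 by 3.70 on the log2 scale (9941 ± 479 against 767 ± 111) and Egr3 22.8-fold (2489 ± 380.3 against 109 ± 23.2), while the ERK inhibitor gene Spred1 rose 2.88-fold (2069 ± 189.9 against 5957 ± 310.5). Of the 13 genes of the CREB and prostaglandin E2 list, 9 were lower and 3 higher. Nr4a1 fell 93.1-fold (44963 ± 5458 against 483 ± 83.9), Sik1 19.2-fold (18516 ± 2224 against 967 ± 99.3), Nr4a2 4.47-fold (14236 ± 1715 against 3187 ± 353) and Crem 2.20-fold (3939 ± 262 against 1793 ± 64.7), in the same direction as Areg. Creb1 (2303 ± 101 against 4912 ± 584), Pde4d (1078 ± 152 against 1707 ± 207) and the prostaglandin E synthase gene Ptges (159 ± 31.0 against 511 ± 143) rose.

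Genes of the hypoxia list moved both ways, 5 of 15 higher and 8 lower. Epas1, which encodes HIF-2 alpha, fell 15.6-fold (17264 ± 3093 against 1104 ± 101), and Ndrg1 fell 2.86-fold (3912 ± 287 against 1367 ± 276), as Vegfa did. Hif1a rose 1.89-fold (5546 ± 433 against 10496 ± 2591), Pfkfb3 8.27-fold (3851 ± 197 against 31847 ± 3141) and Adm 3.43-fold (59.8 ± 7.21 against 205 ± 28.5). Ero1a (1155 ± 122 against 1564 ± 188) and Pgk1 (3019 ± 256 against 3911 ± 824) also rose, Pgk1 with overlapping groups and a call that was lost in 5 of the 9 fits without 1 sample (replicate 1 or 2 before culture, or replicate 1, 2 or 4 after culture).

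Markers of other lung cells moved beside these genes. In bulk samples fewer cells of a type and less RNA per cell cannot be told apart. The summed level of the 10 cDC1 markers was 121489 to 149327 before and 29633 to 34492 after culture (range over samples). Of these genes 7 were lower, among them Wdfy4 (75717 ± 6275 against 4761 ± 811) and Irf8 (18457 ± 1783 against 8465 ± 404). The other 3 were higher, and Wdfy4 made up most of the fall of the sum. The summed level of the 8 genes of mature dendritic cells was 49524 to 52824 before and 222611 to 248196 after culture, with 7 higher, such as Ccl22 (15899 ± 1083 against 48553 ± 2808) and Tmem123 (8968 ± 499.8 against 55154 ± 4399). The mature markers went the way of Ereg, Igf1, Fgf2 and Pdgfa, as did the sums of the T cell and platelet lists below.

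Lists of stroma and vessels went the way of the 6 genes that fell. The sums of the cDC1, epithelial, alveolar macrophage, NK cell and mast cell lists did as well. The 9 endothelial genes, all lower, summed to 24729 to 36129.8 before and 3324 to 4372 after culture, with Vwf at 9468 ± 1427 against 1282 ± 174 and Cdh5 at 8026 ± 1650.3 against 617 ± 183. The 10 fibroblast and pericyte genes, all lower, summed to 16783 to 30287 and 2716 to 5169.8, with Col1a1 at 10792 ± 3514 against 1601 ± 484 and Col3a1 at 4704 ± 969.8 against 278 ± 80.5. The epithelial list summed to 27462 to 46215 and 6576 to 10924, with 9 of 11 genes lower, Sftpc (7801 ± 5185 against 1615 ± 1334) and Napsa (7835 ± 548 against 1789 ± 181) among them. Kdr, Pdgfra and Pdgfrb stand both in these lists and in the pathway lists above.

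Among leukocytes, the neutrophil list had 6 of 7 tested genes lower, Csf3r for example (5352 ± 1265 against 965 ± 245), and Mmp8 higher (401 ± 93.4 against 9876 ± 3673), so that its sums overlapped (13108 to 22539 before, 6909 to 14835 after). Ly6g, a defining neutrophil marker, was at 0 in all 4 cultured samples and at 1.90 to 11.2 before. The NK cell list had 5 of 6 genes lower (1324 to 2753 before, 288 to 488 after), with Prf1 at 539 ± 183 against 88.1 ± 19.0 and Gzma at 415 ± 176 against 28.5 ± 12.1. The mast cell and basophil list summed to 2646 to 4530.2 before and 71.5 to 132 after culture, with lower values of Hdc (2874 ± 702 against 37.8 ± 12.6) and Gata2 (815 ± 129 against 48.1 ± 12.7), which other cells also express. Its 5 defining genes Mcpt8, Fcer1a, Ms4a2, Mcpt4 and Prss34 were below a mean of 10. The T cell and innate lymphoid list summed to 9642 to 11774 before and 19888 to 23710.5 after culture, with most of the difference in Il7r (2611 ± 412 against 13276 ± 1113) and with Rora at 1864 ± 180.1 against 2703 ± 307, while 5 of its 10 genes did not pass. The B cell list overlapped between the groups (2713 to 5019 and 2743 to 3750.3), and 2 of its 6 genes passed. The platelet list summed to 313 to 401 before and 728 to 1475 after culture, with higher values of Ppbp (log2 fold change 3.30) and Pf4 (62.5 ± 30.6 against 579 ± 358), with its other 3 tested genes lower, none of which passed as lower after the GC and length correction.

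Macrophage markers also separated samples within the groups. The monocyte and interstitial macrophage list, with Cd14 at 15958 ± 3711 against 1370.1 ± 673 and Csf1r at 11801 ± 2414 against 14883 ± 3908, summed to 64966, 70023, 78759.8, 42011 and 66190.3 in replicates 1 to 5 before culture. After culture it was 32119.6, 47155, 20351 and 34808 in replicates 1 to 4. Of its 10 genes 5 were lower and 5 did not pass, whereas 6 were lower and 3 higher with a replicate block by library number. Csf1r (log2 fold change 0.32, limma adjusted p = 0.153) passed as higher with that block (limma adjusted p = 6.16e-04), after the GC and length correction (0.82, limma adjusted p = 0.00120), under upper quartile scaling (limma adjusted p = 0.0484) and without replicate 3 after culture (limma adjusted p = 0.0134). The lowest samples of the summed list, replicate 4 before and replicate 3 after culture, were also the lowest of their groups for Osm, Vegfa, Igf1, Pdgfa, Pdgfb and Hgf. This was not particular to these markers. The neutrophil list was also lowest in these samples, and the epithelial, NK cell and T cell lists were highest in them. The alveolar macrophage list was at 17599 to 26252 before and 8582 to 11682 after culture, with 4 of 7 tested genes lower and 1 higher, and was led by Chil3 (17158 ± 3159 against 7818 ± 1149) and Ear2 (2869.5 ± 485 against 729.6 ± 196). The part of any of these cell types in the changes of the 10 genes and of their pathways was not tested. Without replicate 4 before culture the log2 fold changes were −3.43 for Osm, 1.45 for Igf1 and 0.44 for Pdgfa. Without replicate 3 after culture they were −3.15, 1.75 and 0.74.

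**Figure D5:**
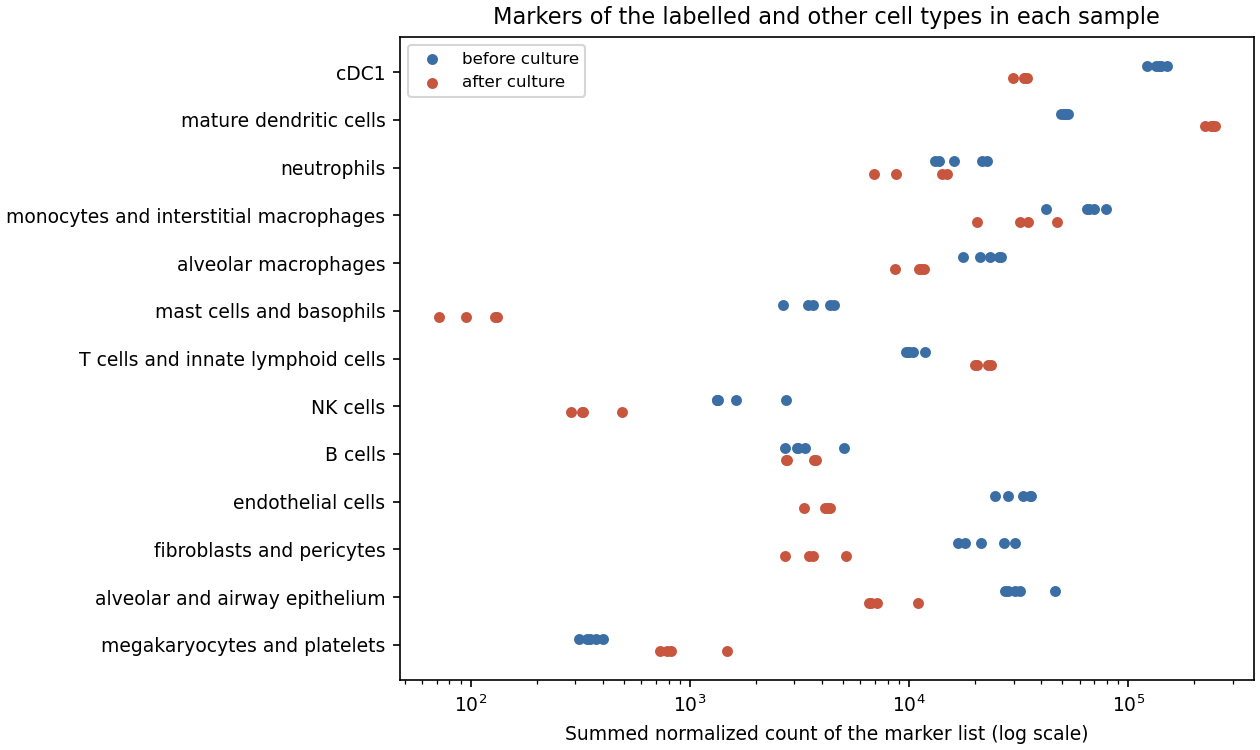
Summed normalized count of each marker list (log axis) in every sample, before (blue, n = 5) and after (red, n = 4) culture. The cDC1, endothelial, fibroblast, epithelial, NK cell, mast cell and alveolar macrophage lists lie lower after culture. The mature dendritic cell, T cell and platelet lists lie higher, and 1 sample of each group stands low for the monocyte and macrophage list.

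Across the 9 samples, the gene with the most similar profile to each of the 10 was named among genes with a mean of at least 100, by Pearson's r of log2(value + 1). These were Lsr for Areg (r = 0.998), Ptges for Ereg (0.992), Cspg4, also in the pericyte list, for Hbegf (0.970), Ccl3 for Vegfa (0.996) and Jund for Osm (0.998). For the others they were Coa4 for Igf1 (0.993), Cyba for Pdgfa (0.961), Cx3cr1 for Pdgfb (0.994), Mgst3 for Hgf (0.989) and Rcor3 for Fgf2 (0.987). All points share the same 9 libraries and the difference between the groups makes most of each r, so these values describe the profiles only.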

How the data were processed

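RNA of 9 samples was sequenced, and samples were grouped by their titles. The authors deposited 1 table of normalized counts (a signal of 0 or more per gene and sample), and the submitters' processing notes name DESeq2 and GRCm38. The aligner, the counter, strandedness and filters are not given in the sources used here. All values were whole multiples of 1 step per sample (100% within 0.01 reads), which gave back whole reads. The 3782 rows without a symbol were left out and held 3.87 to 10.9% of reads. The closest pair of replicates differed by a chi-square of 6.43 per degree of freedom. The labels do not say that samples came from separate mice, so p-values measure only the spread between these samples.

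Genes with a mean of at least 10 were tested with limma 3.58.1 in R 4.3.3 on log2(value + 1), with group as the only term, a mean-variance trend and Benjamini-Hochberg adjustment over all 18202 genes, two-sided, at 0.05. A printed fold is the ratio of group means, ± is the SD, and n is 5 before and 4 after culture throughout. Intervals are 95%. On simulated counts with a dispersion of 0.02, with 18198 genes tested for the same comparison, 93 of 100 changes of 2-fold and 100 of 100 of 4-fold were recovered, and 3.02% of calls were false. With a dispersion of 0.1 and 18186 genes tested, 23 of 100 changes of 2-fold and 97 of 100 of 4-fold were recovered, and 0.826% of calls were false. No other genes were changed in the simulations, a far smaller share than the 68.8% called in the data. The recovered and false shares depend on that share, so they need not hold for these data. Alternatives were pseudocounts of 0.5 and 8, no filter, a minimum mean of 50, other scalings, sample weights, edgeR 4.0.16 and DESeq2 1.42.0 on the recovered reads, replicate blocks and leaving out each sample. A correction for GC content and transcript length (GENCODE M21, 96.5% of tested genes) was added after seeing the data. The genes and lists were chosen with earlier results of these data known. Named genes are the 10 members, up to 4 of each pathway list with the smallest adjusted p, those called in the direction opposite to their list's median, 15 fixed by name and up to 2 per marker list with the highest mean. Genes outside this rule (Btc, Pdgfc, Ly6g, Nudt6, 6330403L08Rik, Epgn and untested marker genes) were chosen after their values were seen.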

Additional observations from a re-analysis of the deposited data

Results flagged for a closer look

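The count of Fgf2 in replicate 3 before culture, 224, stood apart from the other 4 uncultured samples, which lay between 149 and 166. The gap to the nearest sample was 0.764 of the range of the group, above the limit of 0.71 for 5 samples. It was the only such sample among 30 groups of values checked (the 10 genes and 5 ratios, before and after culture), and chance gives about 1 in 20. Without that sample the log2 fold change of Fgf2 was 1.48, against 1.39 with it.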

How the results depend on the processing

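All 10 genes kept their direction and passed the threshold under each of the 13 alternatives that used all samples, edgeR and DESeq2 included. With 1 sample left out at a time, 9 to 10 of the 10 passed, 3 to 4 higher and 6 lower in each of the 9 fits. The exception was Pdgfa, whose log2 fold change ran from 0.438 to 0.744 and which lost its call without replicate 2 or 4 after culture. Over the other alternatives the number of all genes called ran from 9925 (minimum mean of 50) to 14150 (no filter), where fewer or more genes were tested. Pathway genes called ran from 96 to 110. Upper quartile scaling moved the median of all genes to 0.114 and the GC and length correction moved it to 0.132 (log2), from 0.00647. Under that correction Rhbdf2 (0.20), Spint1 (0.0780) and Vegfb (0.12) reversed, and the cause was not tested. Tgfa, which was not called, reversed to 0.22 under it, to 0.0892 with quantile normalization and to 0.0602 with upper quartile scaling. With 1 sample left out it ran from −0.17 to 0.0976 and reversed to 0.0739 without replicate 4 after culture, to 0.0976 without replicate 3 and to 0.0182 without replicate 5 before culture. The GC and length correction also moved by over 1.5 times, without ending their calls, Fgfr3 (−1.43), Igfbp6 (−2.62), Ier2 (−3.01), Col1a1 (−1.96), Vwf (−2.19), Gata2 (−3.42) and Wdfy4 (−3.41). A pseudocount of 8 took Pdgfd to −2.67, Pdgfrl to −1.41 and Igfbp2 to −2.22. Depth limits genes near a count of 10, such as Btc and Igfbp2, and among the growth factors most of all Areg after culture, which rested on as few as 46 reads.

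Samples of both groups share numbers in their titles and, in another order, in their library names. Deviations from the group mean correlated by -0.213 to 0.0807 over the 4 pairs of title numbers and by 0.0447 to 0.349 over the 4 pairs of library numbers. Each cultured sample correlated best with the uncultured sample of its library number, while replicate 5 before culture did not correlate best with its own, which is a hint from the data and not from the design. With a replicate block by title number 11646 genes were called and Tgfa was at 0.0182, and with a replicate block by library number 12836 genes were called. All 10 growth factors passed under either block, Pdgfa with a limma adjusted p of 0.0332 and 1.35e-04.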
